A study of Sus scrofa with 15 samples.

Results

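The genes of MHC class II antigen presentation were described in Longissimus muscle of 15 pigs, through every array probe named for an SLA class II gene (SLA is the pig MHC) or for the invariant chain CD74. A probe was a member when its name in the files began with SLA-D or was CD74, or when its description said so where the name was only a transcript number, and when 7 or more of the 15 arrays carried the scanner software's mark of a signal well above background. The name was met by 41 of the 43603 non-control probes, and 38 of these passed. The members were thus selected on their measured signal as well as their name, and the genes were chosen by earlier results on the same pigs, so neither detection nor the differences below are independent findings. Of the 38 members, 32 belong to CD74, SLA-DRA, SLA-DRB1, SLA-DQA1, SLA-DQB1, SLA-DMA, SLA-DMB or SLA-DOB, and 6 carry only a transcript number beginning with TC.

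The pigs came from lines selected for low or high residual feed intake (RFI), the feed eaten beyond what maintenance and growth are predicted to need. The low_RFI line (RFIneg) had 7 pigs and the high_RFI line (RFIpl) had 8, all fed ad libitum and sampled at 20 kg body weight, with 1 pig per array. From each pig, 150 ng of total RNA was amplified and labelled with Cy3 for a 1-colour Agilent array. The array file names carry numbers from 1 to 8 for 8 of the pigs (4 of each line) and from 55 to 62 for the other 7 (3 low_RFI and 4 high_RFI). What these numbers stand for is not stated in the sources used here, and sex, age and litter are not given either. The labels do not say whether these pigs were unrelated, so the p-values measure only the spread between these 15 samples.

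Each array had 61.7% to 79.4% of its non-control spots well above background and a 75th percentile of processed signal of 319 to 440. The level used throughout is the log2 processed signal minus that array's 75th percentile, so a difference of 1 is a doubling of signal. Levels of different probes are not comparable, because each probe has its own brightness. The skeletal muscle markers averaged between 9.19 and 9.68 in every pig on this scale, which fits the tissue label. The highest 75th percentiles, 440 and 433, were those of high_RFI replicate 5 and low_RFI replicate 6, which were also the pigs of highest class II level below.

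MHC class II molecules are pairs of an alpha and a beta chain that show peptides from endosomes to helper T cells. They are made mainly by macrophages, dendritic cells and B cells, and interferon-gamma can induce them in other cells through the transactivator CIITA. In the endoplasmic reticulum CD74 fills the peptide groove and guides the pair to endosomes, where cathepsins cut CD74 down, the DM pair exchanges its last fragment for a peptide, and the DO pair restrains DM. In muscle the message is expected mostly from the immune cells between the fibres. In these bulk samples, more cells of such a type and more RNA per cell cannot be told apart. In the RefSeq gene table of the pig assembly Sscrofa11.1, SLA-DRA, SLA-DRB1, SLA-DQA1, SLA-DQB1, SLA-DOB, SLA-DMB, SLA-DMA and SLA-DOA follow in this order along 1 chromosome, and CD74 lies on another. The array files place these probes on no genome build, so only the base at which a probe starts in its source transcript is given.

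The probes are 60 bases long, and those below show what was read of the DR, CD74 and DM genes. For CD74 it is the brightest probe, on which its results rest, and for the other genes the probe that starts nearest the 5′ end of the transcript, not the brighter one described first below. Each is written from the array files, 5′ to 3′, and each had at least 1 reading frame without a stop.
SLA-DRA, base 250: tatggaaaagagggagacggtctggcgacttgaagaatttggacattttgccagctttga
SLA-DRB1, base 608: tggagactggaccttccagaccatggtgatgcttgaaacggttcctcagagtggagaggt
CD74, base 434: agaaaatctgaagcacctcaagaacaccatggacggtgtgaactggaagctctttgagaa
SLA-DMA, base 355: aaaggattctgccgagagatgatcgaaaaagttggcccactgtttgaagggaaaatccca
SLA-DMB, base 429: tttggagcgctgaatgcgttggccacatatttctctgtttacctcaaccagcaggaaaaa

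The DQ alpha probes are shown because overlapping ones differ in sequence. Capitals mark the bases at which the members of a pair differ.
TC477478, base 1253: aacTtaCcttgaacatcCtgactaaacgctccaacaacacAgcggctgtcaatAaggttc
SLA-DQA1, base 310: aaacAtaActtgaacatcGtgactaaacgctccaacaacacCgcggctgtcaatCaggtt
SLA-DQA1, base 503: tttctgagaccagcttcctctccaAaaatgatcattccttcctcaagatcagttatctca
SLA-DQA1, base 528: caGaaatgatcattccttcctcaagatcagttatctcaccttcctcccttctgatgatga
The first pair shares 59 aligned bases and differs at 5 of them, T4A, C7A, C18G, A41C and A54C, counted from the 5′ end of the TC477478 probe. The second pair shares 38 aligned bases and differs at 1, A25G, counted from the 5′ end of the probe at base 503. Another DQ alpha pair, SLA-DQA1 at bases 1068 and 1110, is not printed. It shares 56 aligned bases and differs at 3, C20T, A37C and A47C, counted from the 5′ end of the probe at base 1068. Probes of 1 gene are named for the same gene, were read in the same pigs and partly overlap, so they are not independent measurements. They did not all vary alike: SLA-DQA1 at base 2246 had r = 0.47 with base 1012 over the 15 pigs.

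SLA-DRA, SLA-DQA1, SLA-DQB1, SLA-DMB and CD74 were higher in the pigs numbered 55 to 62 than in those numbered 1 to 8, by 1.98-fold to 2.16-fold at the brightest probe of each, and 0 members were called between the lines. With the line in the model, 36 of the 38 members had a higher mean in numbers 55 to 62, and 23 were called by limma at an adjusted p under 0.05, all of them in that direction. Over all 31984 probes tested, 2.28% were called in either direction, 1.4% as higher and 0.875% as lower. At an unadjusted p under 0.05 were 34 members and 19.7% of all probes. With normexp background correction 12 members were called, and 58 of 64 called probes were higher, against 448 of 728 here. The median log2 difference was 1.03 over the members and -0.039 over all probes. The number sets were first noticed in these data and the members were chosen with earlier results known, so these p-values describe the size of the difference against the spread and are not independent support for it.

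SLA-DRA, the alpha chain of the DR pair, was read by 7 probes, all of them higher in numbers 55 to 62. Its brightest probe, at base 1158, had levels of 3.68, 3.65, 3.95 and 3.73 in low_RFI replicates 1 to 4 and of 3.59, 3.55, 4.03 and 3.76 in high_RFI replicates 1 to 4, the pigs numbered 1 to 8. In numbers 55 to 62 it had 4.67, 5.20 and 4.60 in low_RFI replicates 5 to 7 and 5.82, 4.42, 4.23 and 4.86 in high_RFI replicates 5 to 8. Every pig numbered 55 to 62 lay above every pig numbered 1 to 8, in both lines, and high_RFI replicate 5 was the highest. The difference was 1.09 ± 0.20 (SE), or 2.13-fold (limma adjusted p = 0.0146). Among numbers 1 to 8 the mean was 3.75 ± 0.14 (SD, n = 4) for the low_RFI pigs and 3.73 ± 0.22 (SD, n = 4) for the high_RFI pigs. Among numbers 55 to 62 it was 4.82 ± 0.33 (SD, n = 3) for the low_RFI pigs and 4.83 ± 0.71 (SD, n = 4) for the high_RFI pigs. In that order of levels the lines within a set lay within each other's spread, and the step came between the sets.

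The other SLA-DRA probes gave the same picture. Over all 7, the differences ran from 1.03 to 1.11 (limma adjusted p from 0.0146 to 0.0277), and in each of the 7 the sets did not overlap. Such a complete separation, with numbers 55 to 62 above, was seen in 19 of the 38 members and in 0.46% of all probes tested. The reverse, with numbers 55 to 62 all below, was seen in 0 members and in 0.394% of all probes. The probe at base 250, printed above, ranged from 0.50 to 1.10 with a median of 0.73 in numbers 1 to 8, and from 1.24 to 2.93 with a median of 1.72 in numbers 55 to 62.

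SLA-DRB1, the variable beta chain that pairs with SLA-DRA, was read by 4 probes, and none passed the test. At base 787 the pigs numbered 1 to 8 ranged from 1.51 to 2.59 with a median of 2.01, and those numbered 55 to 62 from 2.36 to 4.03 with a median of 2.74. Low_RFI replicate 3 at 2.59 and high_RFI replicates 1 and 3 at 2.46 and 2.40 stood above the rest of numbers 1 to 8 and overlapped low_RFI replicate 7, which had 2.36. All 4 probes had these 3 pigs as the highest of numbers 1 to 8. The differences between sets ran from 0.86 to 0.93 (limma adjusted p from 0.0581 to 0.0896), a log2 size close to that of SLA-DRA, with a wider spread within numbers 1 to 8. The spot at base 893 was left out on the array of low_RFI replicate 1, where the scanner software had flagged it, so that probe rests on 14 pigs.

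SLA-DQB1, the beta chain of the DQ pair, was higher in numbers 55 to 62 in all 4 of its probes. At base 1061 the levels were 3.09, 2.98, 2.88 and 3.17 in low_RFI replicates 1 to 4 and 2.81, 2.80, 3.02 and 3.27 in high_RFI replicates 1 to 4. In numbers 55 to 62 they were 3.42, 4.55 and 3.95 in low_RFI replicates 5 to 7 and 5.05, 4.09, 3.72 and 4.07 in high_RFI replicates 5 to 8. The sets did not overlap at this probe, and low_RFI replicate 5 was the lowest pig of its set. The difference was 1.11 ± 0.19 (SE), or 2.16-fold, with a limma adjusted p of 0.0141. Over the 4 probes the differences ran from 1.11 to 1.62 (limma adjusted p from 0.0141 to 0.0235). The probe at base 1104 had the largest, and there the sets overlapped, because low_RFI replicate 1 read 2.63 and low_RFI replicate 7 read 2.44.

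SLA-DQA1, the alpha chain of the DQ pair, had 9 probes, of which 7 were called as higher in numbers 55 to 62. At base 1012 numbers 1 to 8 ranged from 2.66 to 3.31 with a median of 3.004, and numbers 55 to 62 from 3.34 to 5.05 with a median of 3.88. The sets did not overlap, and the difference was 1.08 ± 0.21 (SE), or 2.12-fold, with a limma adjusted p of 0.0215. The probes at bases 503 and 528, which differ by A25G over their shared bases, gave 0.93 and 0.68 (limma adjusted p = 0.0263 and 0.0601). The second of these was not called, although its sets did not overlap.

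CD74, the invariant chain, was higher in numbers 55 to 62 at both of its probes. At base 434 the levels were 1.11, 0.71, 1.33 and 1.13 in low_RFI replicates 1 to 4 and 1.04, 0.96, 1.05 and 1.20 in high_RFI replicates 1 to 4. In numbers 55 to 62 they were 1.78, 2.73 and 1.68 in low_RFI replicates 5 to 7 and 2.80, 1.80, 1.81 and 1.75 in high_RFI replicates 5 to 8. The sets were apart, and 2 pigs, high_RFI replicate 5 and low_RFI replicate 6, stood well above the other pigs of their set. The difference was 0.99 ± 0.18 (SE), or 1.98-fold, with a limma adjusted p of 0.0174 (0.0504 with normexp background correction). At base 79 it was 0.66 ± 0.16 (SE), or 1.58-fold, with a limma adjusted p of 0.0426.

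SLA-DMB, the beta chain of the peptide exchanger DM, was called at both probes, and SLA-DMA, its alpha chain, at neither. SLA-DMB at base 1224 ranged from 1.25 to 1.72 with a median of 1.39 in numbers 1 to 8 and from 1.80 to 3.82 with a median of 2.33 in numbers 55 to 62, a difference of 1.04 ± 0.24 (SE) with a limma adjusted p of 0.0359. Its other probe gave 1.02 (limma adjusted p = 0.0486). The call at base 1224 ended with normexp (limma adjusted p = 0.0712), with no filter on dim probes (0.0631) and when low_RFI replicate 2, 3, 4, 6 or 7 or high_RFI replicate 1, 2, 3, 4 or 8 was left out (0.0532 to 0.0726), at differences of 0.95 to 1.08. SLA-DMA at base 998 ranged from 1.49 to 1.93 with a median of 1.75 in numbers 1 to 8 and from 1.78 to 3.30 with a median of 2.24 in numbers 55 to 62. Its sets overlapped, since high_RFI replicate 7 read 1.78, and the difference of 0.65 ± 0.18 (SE) had a limma adjusted p of 0.072. At base 355 SLA-DMA gave 0.66 with a limma adjusted p of 0.125.

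SLA-DOB, the beta chain of DO, was dim, and its probes differed from each other. At base 700, the brighter, numbers 1 to 8 ranged from -4.35 to -2.97 and numbers 55 to 62 from -4.18 to -3.32, with a difference of 0.00010 ± 0.21 (SE) and a limma adjusted p of 0.9998. At base 1197, well above background on 14 arrays, the difference was 0.80 ± 0.22 (SE) with a limma adjusted p of 0.0645. The highest pigs at base 700 were low_RFI replicates 1 and 2, both numbered 1 to 8, at -2.97 and -3.06. A gene named LOC100157996 in the files, which the gene table lists as SLA-DOA, the DO alpha chain, lies outside the naming rule. It gave 0.73 ± 0.23 (SE) with a limma adjusted p of 0.081 over genes.

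**Figure D1:**
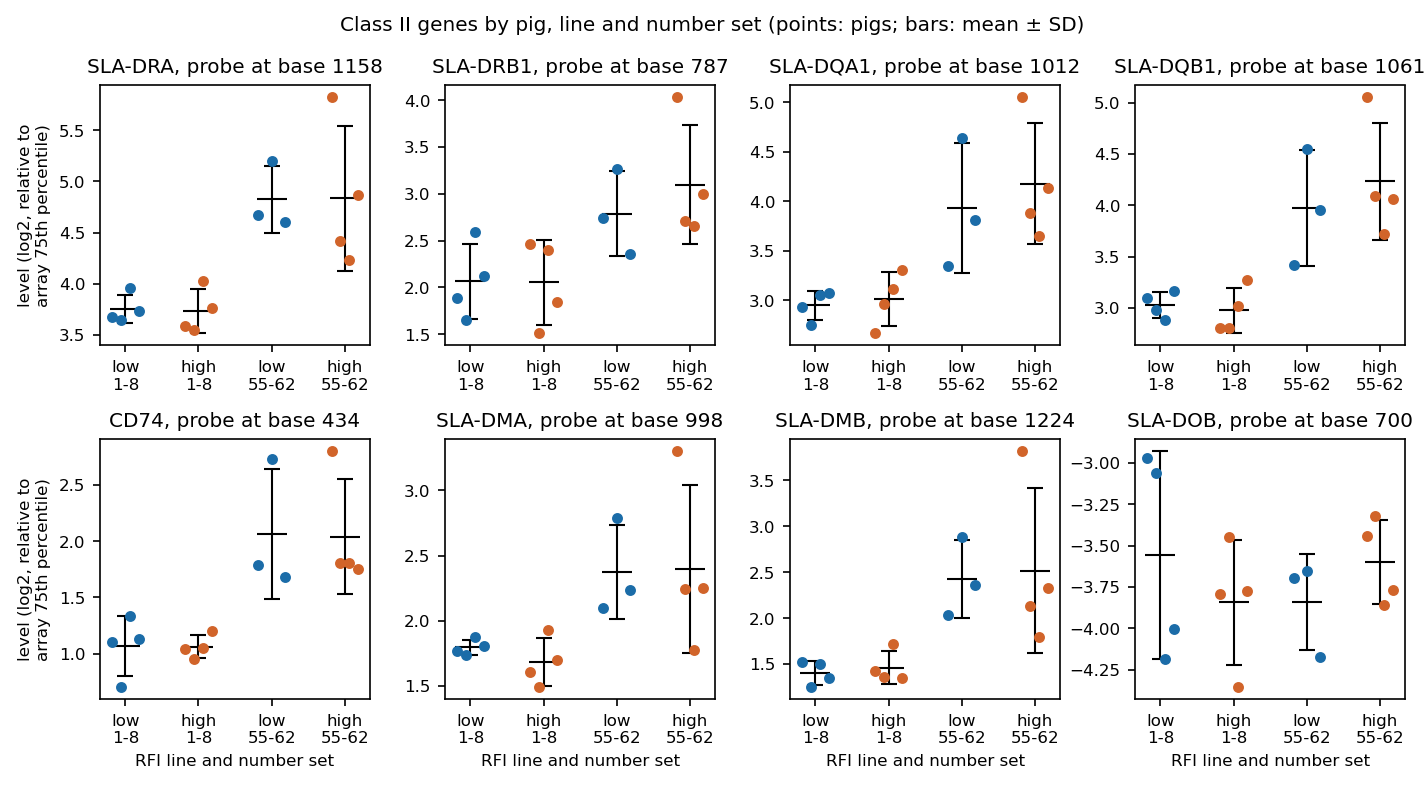
Levels (log2, relative to each array's 75th percentile) of 1 probe per gene, by line and number set. Points are pigs, blue for low_RFI and orange for high_RFI, and bars show the mean ± SD. At the SLA-DRA probe at base 1158 every pig numbered 55 to 62 lies above every pig numbered 1 to 8, whichever the line, while at the SLA-DOB probe at base 700 the 4 groups overlap.

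Without high_RFI replicate 5 and low_RFI replicate 6, the pigs of highest level, the difference was smaller and fewer members were called. The brightest probe of each called gene still passed. The 2 pigs left out were the highest 2 at 30 of the 38 members, and high_RFI replicate 5 was the highest pig at 28. Leaving both out, a choice made after seeing the data, gave 18 of 38 members called, beside 404 of 31984 probes, and a median difference of 0.72. SLA-DRA at base 1158 then differed by 0.82 (limma adjusted p = 0.0178), SLA-DQB1 at base 1061 by 0.84 (0.0178), CD74 at base 434 by 0.70 (0.0178), SLA-DMB at base 1224 by 0.70 (0.0196) and SLA-DQA1 at base 1012 by 0.77 (0.0237). Leaving out 1 pig at a time gave 15 to 25 members called, with the fewest, 15, without low_RFI replicate 6 and likewise without replicate 1 or replicate 4 of high_RFI.

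The difference between number sets was present in each line and on each slide. Within low_RFI 35 of 38 members had the higher mean in numbers 55 to 62, with a median difference of 0.98, and within high_RFI 36 of 38, with a median of 1.04. There were 4 slides, and every one of them held pigs of both lines and both sets. SLA-DRA at base 1158 differed between sets by 1.19, 2.21, 0.59 and 0.86 on slides 1 to 4, and the median over members was 1.19, 1.88, 0.49 and 0.81. The slide of the largest difference held 3 arrays and high_RFI replicate 5 as the 1 pig numbered 55 to 62. With slide as a fixed block, 26 members were called, beside 1214 of 31984 probes.

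The 15 members that were not called for the number set included 13 with a higher mean in numbers 55 to 62. The members just inside the filter on background were TC432095 and TC513407, on 9 arrays each, and SLA-DOB at base 1197 on 14. Just outside were another SLA-DOB probe at base 199 on 3 arrays, TC492207, described as DO beta, on 2 and TC508580, described as DR alpha, on 1. TC432095, described as DR beta, was well above background in all 7 pigs numbered 55 to 62 and in 2 of those numbered 1 to 8, so it passed the filter mainly through the higher set and its call (2.22 ± 0.46 SE, limma adjusted p = 0.0249) supports nothing. Of the 35 members well above background on every array, 22 were called and 34 had the higher mean in numbers 55 to 62. With only such probes tested, 26 of these 35 were called, beside 831 of 26025 probes. The members with the lower mean were TC513407, described as DQ beta, at -0.32 and TC465164, described from a macaque DR alpha chain, at -0.21 (limma adjusted p = 0.366 and 0.283). TC453491, also described as DR beta, gave 0.89 ± 0.29 (SE) with a limma adjusted p of 0.107.

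Between the lines, no member passed the test. Of 38 members, 0 were called by limma, as were 0% of all 31984 probes tested, and 2 were at an unadjusted p under 0.05, against 6.67% of all probes. The lines overlapped at every member, and 0.0782% of all probes separated them completely. The median log2 difference, low_RFI minus high_RFI, was -0.068 over the members and 0.014 over all probes, and 26 of 38 members had the lower mean in low_RFI. SLA-DRA at base 1158 had medians of 3.95 in low_RFI and 4.13 in high_RFI and a difference of -0.072 ± 0.33 (SE). CD74 at base 434 had medians of 1.33 and 1.48 and a difference of -0.054 ± 0.30 (SE), and SLA-DQB1 at base 1061 medians of 3.17 and 3.50 and a difference of -0.17 ± 0.34 (SE). The limma adjusted p of these 3 ran from 0.986 to 0.995.

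Within the number sets the line differences went both ways. Over the members they ran from -0.88 to 1.53 with a median of 0.021 in numbers 1 to 8, and from -1.30 to 3.22 with a median of -0.031 in numbers 55 to 62. For the interaction of line and number set, 0 of 38 members were called, as were 0% of all probes, 0 members had an unadjusted p under 0.05, against 5.66% of all probes, and the smallest unadjusted p was 0.218. On slides 1 to 4 the median line difference was 0.43, -0.77, 0.21 and -0.15, so it changed sign from slide to slide. With the number set as a block in the model, 0 members were called as well.

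**Figure D2:**
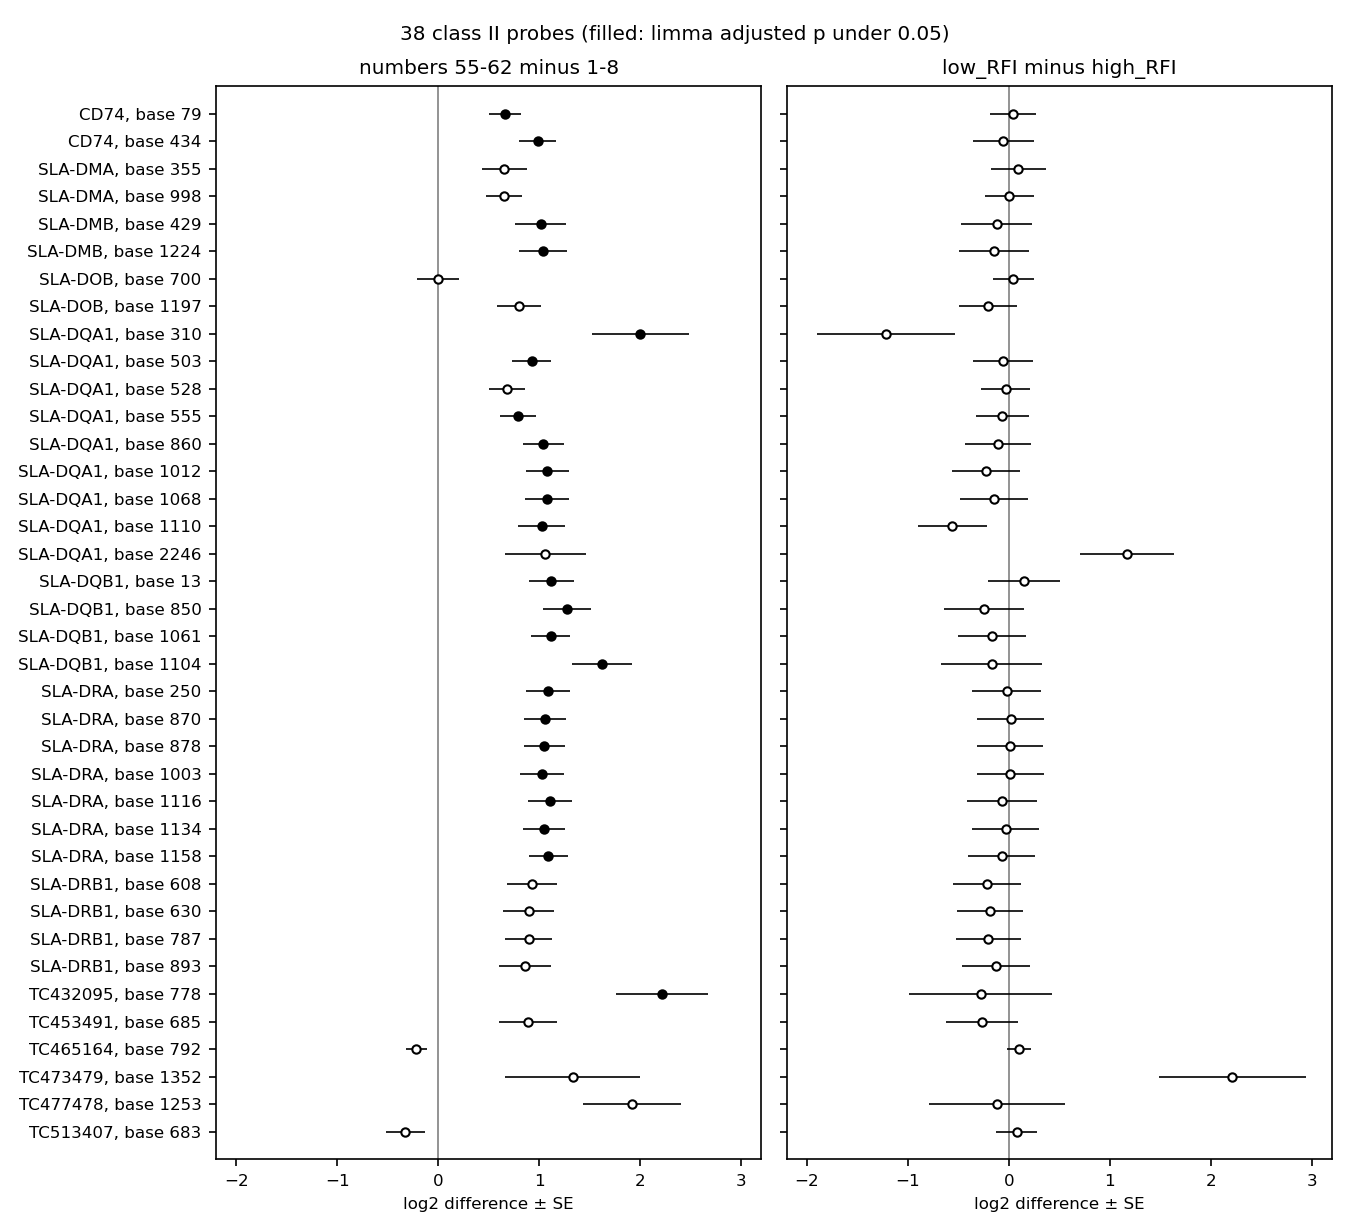
Log2 difference ± SE of the 38 class II probes, on the left numbers 55 to 62 minus numbers 1 to 8 with line in the model, on the right low_RFI minus high_RFI. Filled points had a limma adjusted p under 0.05. All 23 filled points are in the left panel, above 0, while the line differences lie near 0 except at a few DQ alpha probes.

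The members farthest from 0 in the line comparison were DQ alpha probes that read high in some pigs and low in others. TC473479, described as the DQ alpha chain of a haplotype named D, had 1.09, -2.23, -2.31, -2.26, 1.63, 2.42 and -1.62 in low_RFI replicates 1 to 7. In high_RFI replicates 1 to 8 it had -2.70, -3.84, -2.54, -2.76, -1.29, -3.37, -3.12 and -1.85. Low_RFI replicates 1, 5 and 6 stood more than 2 above every other pig. The line difference was 2.21 ± 0.72 (SE), with an unadjusted p of 0.00763 and a limma adjusted p of 0.548.

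SLA-DQA1 at base 2246 was high in the same 3 pigs. It read 2.45, 2.85 and 3.65 in low_RFI replicates 1, 5 and 6, and from -0.28 to 1.74 in the other 12 pigs, with high_RFI replicate 5 the next highest. Its line difference was 1.17 ± 0.47 (SE), with a limma adjusted p of 0.684. At SLA-DQA1 base 1012 low_RFI replicate 1, with 2.93, was among the lower pigs.

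SLA-DQA1 at base 310 and TC477478, the overlapping pair printed above, split the pigs in another way. At base 310, numbers 1 to 8 read -0.90, -2.21, -1.82 and -1.83 in low_RFI replicates 1 to 4 and -2.27, 0.64, -1.71 and 0.09 in high_RFI replicates 1 to 4. Numbers 55 to 62 read -0.47, 1.85 and -1.12 in low_RFI replicates 5 to 7 and 2.13, 1.17, 1.25 and 0.98 in high_RFI replicates 5 to 8. The sets overlapped, with high_RFI replicates 2 and 4 above low_RFI replicates 5 and 7.

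At TC477478, numbers 1 to 8 read 0.45, -2.26, -1.85 and -1.89 in low_RFI replicates 1 to 4 and -2.27, -0.59, -1.67 and -0.53 in high_RFI replicates 1 to 4. Numbers 55 to 62 read 0.91, 2.28 and -1.09 in low_RFI replicates 5 to 7 and 0.96, 0.41, 0.40 and 0.29 in high_RFI replicates 5 to 8. In the order of pigs within each probe, low_RFI replicates 1 and 5 lay above high_RFI replicates 2 and 4 here and below them at base 310. The number set differences were 2.002 ± 0.48 (SE, limma adjusted p = 0.044) at base 310 and 1.92 ± 0.49 (SE, limma adjusted p = 0.0524) at TC477478. The call at base 310 ended with normexp (limma adjusted p = 0.0832), with no filter on dim probes (0.0744), with no term for line (0.0527), without both highest pigs (0.115) and without any 1 of low_RFI replicates 2 to 6 or high_RFI replicates 1 and 3 to 8 (0.0513 to 0.0819), at differences of 1.49 to 2.14. Class II genes are highly polymorphic, and whether the pigs carry different bases under these probes was not tested.

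**Figure D3:**
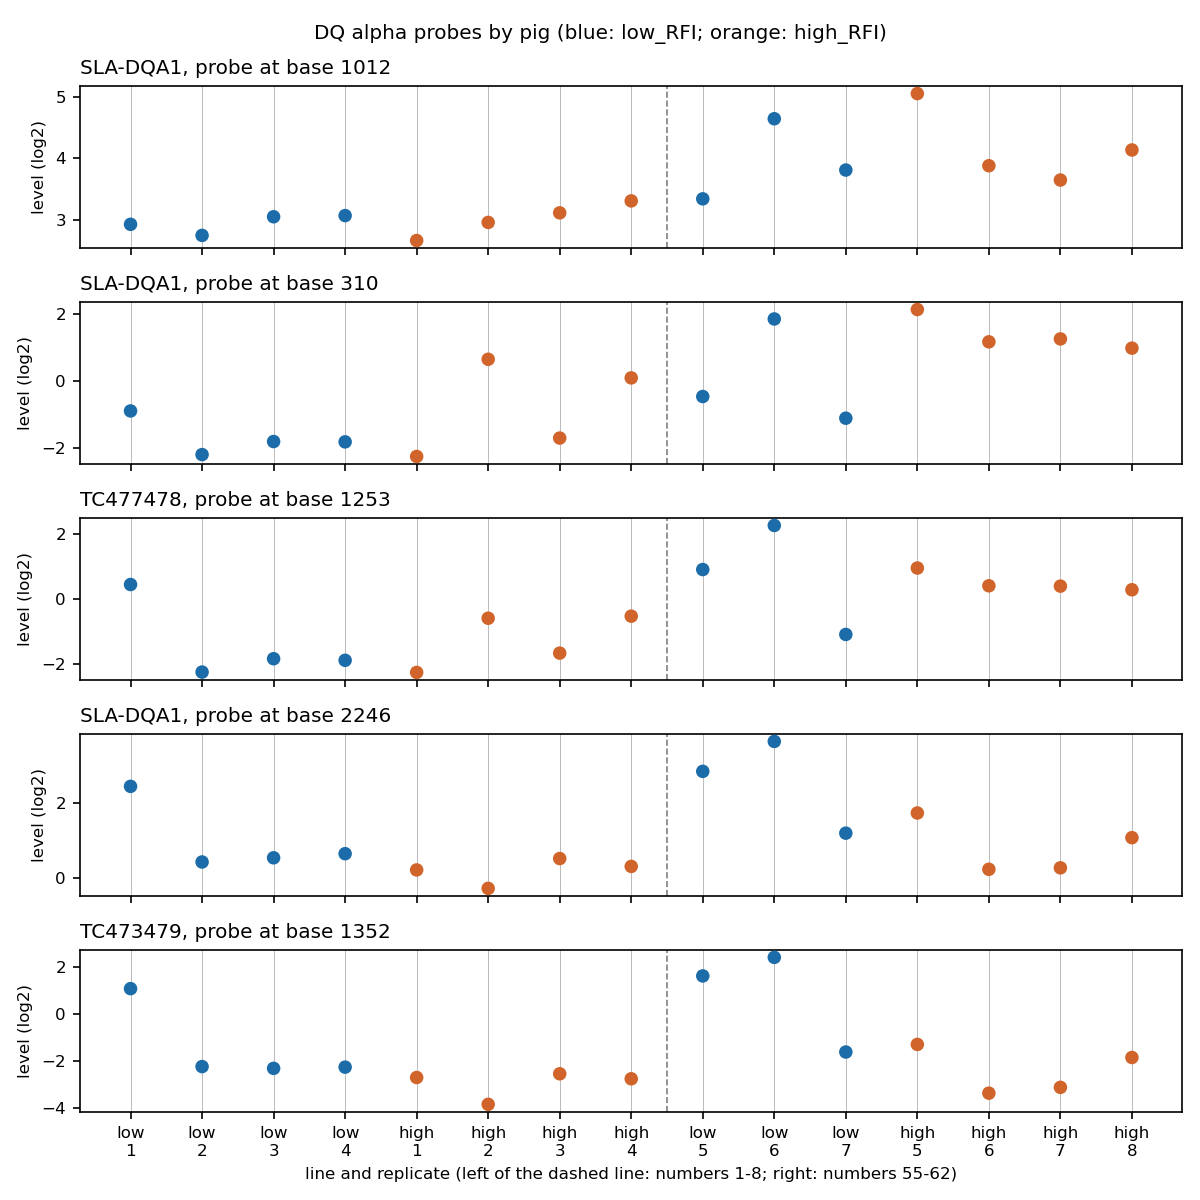
Levels (log2, relative to each array's 75th percentile) of 5 DQ alpha probes in each pig, with numbers 1 to 8 left and numbers 55 to 62 right of the dashed line. Points are blue for low_RFI and orange for high_RFI. At SLA-DQA1 base 2246 and TC473479 the low_RFI replicates 1, 5 and 6 stand above the other pigs, a pattern not seen at base 1012.

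The class II genes varied together from pig to pig within numbers 55 to 62. Over 28 pairs of the 8 member genes, each by its probe of highest mean level (base 893 for SLA-DRB1), 21 passed in these 7 pigs by Pearson correlation (exact permutation tests, two-sided, Benjamini-Hochberg over the pairs), and 2 by Spearman correlation. The 21 are all the pairs without SLA-DOB, which was read here by its probe at base 700 only. SLA-DRA and SLA-DMB, for example, had r = 0.969 (exact permutation p = 0.00179, adjusted 0.016) and rho = 0.821 (exact permutation p = 0.0341, adjusted 0.0796). For each pair, r was also taken without the 2 pigs farthest from the median of its first gene, so the pigs left out differed between pairs. The median r over those 21 pairs was then 0.47 with a range from -0.80 to 0.93, and 5 of the 6 negative ones involved CD74. Within this set the relation therefore rested largely on the pigs left out. Over all 15 pigs, after line and number set were taken out, 20 of 28 pairs passed by Pearson and 19 by Spearman correlation, with a median r of 0.79. Without the 2 farthest pigs, r there was 0.82 for SLA-DRA with SLA-DMB and 0.27 for SLA-DQA1 with SLA-DRB1. In the pigs numbered 1 to 8 (8 pigs, or 7 for pairs with SLA-DRB1), 0 of 28 pairs passed by either coefficient, with a median r of 0.355.

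The genes most like the members over the 15 pigs included several with known roles in immunity. Likeness was the Pearson correlation of a gene with the mean of the 8 member genes after centring each, over 4617 genes without missing values, and is a description, since the pigs share their number set. An r above 0.9 was reached by 32 genes that are not members, and by 0.823% of the 4617 genes when members are counted too. Among the closest were TRIM38, AIF1, PSMB9, C2, FCGR3A, C1H15orf48, TLR3, PTPN6 and PARP10, with r from 0.925 to 0.941. AIF1 and PSMB9 are also in the lists used below. AIF1 is a protein of macrophages, FCGR3A an Fc receptor of myeloid and natural killer cells, PSMB9 an immunoproteasome subunit, C2 a complement component encoded in the MHC and TLR3 a sensor of double-stranded RNA. Within numbers 55 to 62 AIF1 had r = 0.955 and TLR3 0.871, and within numbers 1 to 8 they had 0.476 and -0.030. SLA-DOB, a member, had r = 0.095 and ranked 1414, but this rests on its dim probe at base 700. At its other member probe, at base 1197, the highest pigs were high_RFI replicate 5 (-2.90) and low_RFI replicate 6 (-2.92), and no likeness was computed for that probe.

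The rest of the pathway was read at gene level, with 1 probe per gene, where 3.74% of 4680 genes were called for the number set, 2.24% as higher and 1.5% as lower, and 0.0214% for the line. Of the 8 member genes, 5 were called as higher in numbers 55 to 62: SLA-DRA, SLA-DQA1, SLA-DQB1, SLA-DMB and CD74. In these 5 the sets did not overlap, with numbers 55 to 62 above, which was so in 0.513% of all genes. Over all genes the median difference between sets was -0.048, and 1909 of 4680 had the higher mean in numbers 55 to 62.

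All 9 tested genes listed with the endosomal proteases and reductase had a higher mean in numbers 55 to 62, with a median difference of 0.21. The list also holds CST3 and ASAH1, which are neither proteases nor reductases, and 1 of the 9 was called. That was CST3, the cathepsin inhibitor cystatin C, at 0.65 ± 0.14 (SE, limma adjusted p = 0.0236). CTSS, the cathepsin that cuts CD74, gave 0.82 ± 0.27 (SE, limma adjusted p = 0.0899), IFI30, the thiol reductase of endosomes, 0.87 ± 0.33 (SE, 0.135), and CTSH 0.41 (0.247). In the line comparison CTSZ had the smallest p of this list, at -0.34, followed by CTSD at -0.20 and LGMN, the asparagine endopeptidase, at -0.24 (limma adjusted p from 0.615 to 0.757).

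Of 3 class II transcription factors tested, 0 were called. RFX5, which binds the X box of class II promoters, gave -0.26 between sets, NFYB, of the Y box, -0.22, and CREB1 -0.13 (limma adjusted p from 0.18 to 0.459), and all 3 had the lower mean in numbers 55 to 62. CIITA has no symbol in the files and 1 probe matched it by description. That probe, starting at base 211, gave -0.24 ± 0.22 (SE) between sets (limma adjusted p = 0.563) and -0.047 between lines.

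Genes of interferon-gamma signalling named here were not called. IRF1, a transcription factor induced by interferon, gave 0.94 ± 0.35 (SE, limma adjusted p = 0.132) between sets, SOCS3, a feedback inhibitor of cytokine signalling, 0.67 (0.354), and IFNG itself -0.14 (0.734). Between lines SOCS3 gave -0.996 and the signalling kinase JAK2 0.37 (limma adjusted p = 0.676 and 0.626).

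Costimulatory and sorting genes gave 0 calls. Of 5 costimulatory genes, 4 had the higher mean in numbers 55 to 62, with CD86, a ligand of CD28, at 1.65 ± 0.44 (SE, limma adjusted p = 0.0507), CD83 at 0.81, PDCD1LG2 at 0.72 and CD40 at 0.60. CD86, CD83 and PDCD1LG2 were dim, with means of -4.70, -3.68 and -4.88 in numbers 1 to 8. Between lines CD40 had the smallest p, at -0.73 (limma adjusted p = 0.657). Of 4 turnover and sorting genes, the lysosomal protein LAMP1 gave 0.19 and LAMP2 0.061 between sets, the tetraspanin CD9 -0.0020 and the ubiquitin ligase MARCH8 -0.00795.

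Some MHC class I genes, which show peptides to cytotoxic T cells, were higher in numbers 55 to 62 as well. Of 14 class I and peptide loading genes tested, 12 had the higher mean there, with a median difference of 0.77, and 4 were called. These were SLA-2 at 1.30 ± 0.25 (SE, limma adjusted p = 0.0159), SLA-3 at 1.10 ± 0.23 (SE, 0.0234), SLA-1 at 1.09 ± 0.26 (SE, 0.0351) and SLA-8 at 0.70 ± 0.18 (SE, 0.0468). SLA-1, SLA-2 and SLA-3 are closely alike in sequence, so their probes may share signal, and whether the SLA-8 probe shares any was not tested. B2M, the light chain, gave 0.75 ± 0.21 (SE, 0.0596).

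Macrophage, T cell and pan-leukocyte markers mostly had higher means in numbers 55 to 62, and their list means were highest in high_RFI replicate 5 and low_RFI replicate 6. All 7 tested macrophage and monocyte markers had the higher mean there, with a median difference of 0.97 and 0 called; FCER1G gave 1.09 (limma adjusted p = 0.0596), AIF1 1.07 (0.0599), TYROBP 0.96 (0.0674), C1QA 0.97 (0.0689) and CD163 0.45 (0.335). Their mean level ran from -0.66 to 0.54 in numbers 1 to 8 and from -0.033 to 1.97 in numbers 55 to 62. Of the T cell markers 6 of 7 had the higher mean, and CD2, an adhesion molecule of T cells, was called at 2.05 ± 0.49 (SE, limma adjusted p = 0.0331). The mean level of the T cell markers ran from -4.18 to -2.65 and from -3.41 to -0.89. CD2 was dim, with means of -5.39 in numbers 1 to 8 and -3.40 in numbers 55 to 62. It may have passed the filter on background mainly through the higher set, which was not checked. Of the pan-leukocyte markers both tested had the higher mean, LCP1 at 1.42 ± 0.37 (SE, 0.0447) and CD53 at 1.15 (0.0599).

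B cell and dendritic cell markers gave 0 calls. Of 3 tested B cell markers 2 had the higher mean in numbers 55 to 62, BLNK at 0.78 and FCRLA at 1.16 (limma adjusted p = 0.106 and 0.109), while PAX5 gave -0.27 (0.158). Their mean ran from -2.53 to -1.74 and from -2.27 to -0.84. Of 3 tested dendritic cell markers CCR7 gave 0.62, XCR1 0.053 and CD209 -0.28 (limma adjusted p from 0.121 to 0.896), with a mean from -3.46 to -2.46 and from -3.19 to -2.37. The part of any of these cell types in the class II difference was not tested.

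Markers of muscle, matrix, vessels and fat gave 0 calls. Of 12 skeletal muscle markers 11 had the lower mean in numbers 55 to 62, with a median difference of -0.091 and 0 called. DES gave -0.22, TNNT3 -0.29 and MYH2 -0.84 (limma adjusted p from 0.0931 to 0.17). The marker with the higher mean was MYH7, at 0.32 (limma adjusted p = 0.251). The 7 fibroblast and matrix markers all had the lower mean, with a median of -0.34 and 0 called, among them DCN at -0.23, FBN1 at -0.40, THY1 at -0.34, COL3A1 at -0.31 and POSTN at -0.54. Of the 7 endothelial markers, PECAM1 gave -0.11, VWF 0.027 and CDH5 -0.026, and of the 6 adipocyte markers FABP4 gave 0.28, LIPE -0.091, LPL -0.12 and ADIPOQ 0.068.

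**Figure D4:**
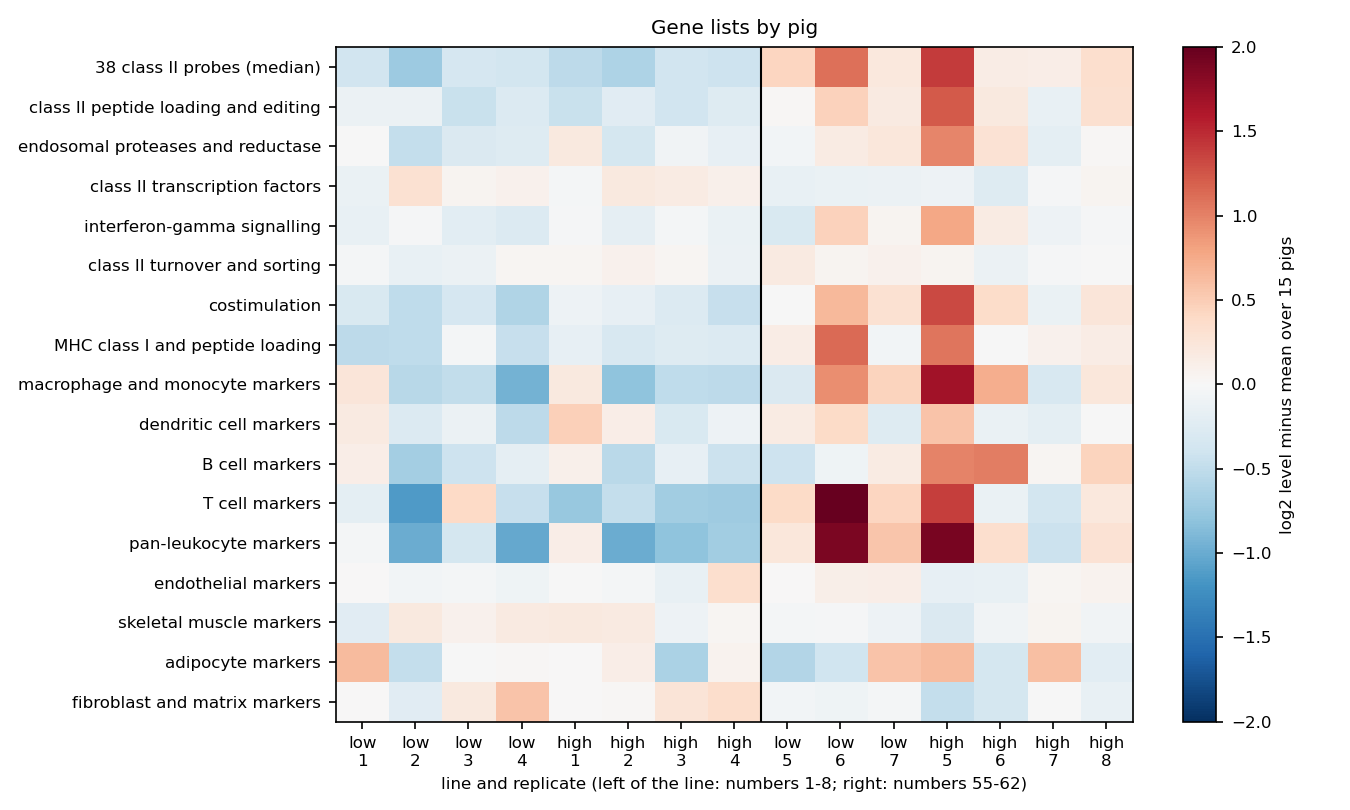
Mean level of each gene list in each pig, minus its mean over the 15 pigs (log2, colour scale from -2 to 2), with the median over the 38 class II probes in the top row. Pigs numbered 1 to 8 are left and those numbered 55 to 62 right of the black line. High_RFI replicate 5 and low_RFI replicate 6 have the highest values in the class II, MHC class I, macrophage and pan-leukocyte rows, while the transcription factor and muscle rows vary little.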

How the data were processed

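The members, gene lists and comparisons were chosen with earlier results of these data known. Per the file headers, the scanner files hold spot intensity from Feature Extraction 10.7.3.1, after its own background subtraction and with no normalization between arrays, plus flags (score columns) for spots well above background, non-uniform or saturated; 0 spots were saturated. The deposited table holds log2 values made by the authors, with R 2.10.0 named in the submitters' processing notes. Its values equalled the log2 processed signal less the median of the 29364 spots it lists for that array (largest difference 4.93e-08), and it held 37 members and served only as an alternative.

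Control and flagged spots were left out, spots of a probe averaged, and the 75th percentile of 43803 non-control spots subtracted. Probes were tested when well above background on at least 7 arrays with at least 4 values per line, which kept 31984 probes. Symbols came from the files and from RefSeq, and 11929 probes had 1 symbol, 325 only a LOC symbol and 31349 several or none. Of the 9 SLA-DQA1 probes, 8 are named SLA-DQA in the files. For genes, the tested probe of highest mean level stood for each of 4680 symbols.

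Models were fitted with limma 3.58.1 (lmFit and eBayes, statmod 1.5.0, version 1.17.8 of the data.table package) in R 4.3.3, for line alone, for number set with line, and for their interaction, two-sided, with Benjamini-Hochberg adjustment over all probes or genes and calls at an adjusted p under 0.05. The script was tested on simulated data. Named genes are all members, the 10 most correlated with them, and up to 4 of smallest p per list and comparison (marker lists also their 3 of highest level). A gene that this rule names is not reported here. Alternatives covered background correction (normexp with offset 50), normalization, the deposited values, filters, flags, slide, replicate number, number set, line, limma options, probes per gene and each pig left out. The number of arrays limits the precision.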

Additional observations from a re-analysis of the deposited data

Results flagged for a closer look

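Among 152 groups of 7 or 8 pigs (38 members by line and by number set), 14 had a highest or lowest pig farther from its nearest neighbour than Dixon's criterion allows, and these were 4 different pigs. Chance gives this in about 1 in 20 groups, and the members were read in the same pigs, often by several probes of a gene, so these are not independent. High_RFI replicate 5 was the highest of its line at CD74 base 434 (level 2.80), SLA-DMA bases 355 (0.357) and 998 (3.30), SLA-DMB bases 429 (0.528) and 1224 (3.82) and SLA-DQA1 base 528 (1.99). Low_RFI replicate 6 was the highest of its line at CD74 base 79 (1.77), SLA-DQA1 bases 310 (1.85), 528 (1.86) and 555 (2.50) and SLA-DQB1 base 850 (3.97). Low_RFI replicate 1 was the highest of numbers 1 to 8 at SLA-DQA1 base 2246 (2.45) and at TC473479 (1.09). High_RFI replicate 2 was the lowest of numbers 1 to 8 at CD74 base 79 (0.146).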

How the results depend on the processing

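Over 37 results and 899 combinations of result and alternative, 800 kept their direction and side of the threshold or stayed near their value. No setting called a member for line or for the interaction; over all probes, 1 was called for line with no filter on dim probes or without both highest pigs, and 0 to 2 with 1 pig left out. The 23 members called for the number set became 12 with normexp and 15 to 25 with 1 pig left out. The 728 probes called over all became 64 with normexp (median of all probes -0.106), 360 with no filter on dim probes, 1214 with slide as a fixed and 1195 as a random block, 1495 with array quality weights, 404 without both highest pigs, and 348 to 1159 with 1 pig left out. With normexp the genes called fell from 1 to 0 for line and from 175 to 79 for the number set. The member genes called at gene level for the number set, 5 in the main setting, stayed at 5 to 6 over the gene-level alternatives, normexp included. In the test over probes, CD74 (limma adjusted p = 0.0504) and SLA-DMB (0.0712) were no longer called with normexp. SLA-DMB was called in 16 of its 28 alternatives and SLA-DQA1 at base 310 in 12 of 28, while SLA-DRA, SLA-DQB1 and SLA-DQA1 at base 1012 were called in 28 of 28. SLA-DMA was called in 1, without high_RFI replicate 7 (0.0474). The causes were not tested.

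Uncalled differences near 0 changed sign. Between lines SLA-DOB gave -0.171 and SLA-DRA 0.012 with normexp, SLA-DMA -0.0076 with quantile normalization, SLA-DRB1 (base 893) 0.17 with deposited values and 0.18 with flagged spots kept, SLA-DOB -0.037 with array weights, and CD74 0.016 and SLA-DRA 0.0061 with number set as a block. SLA-DOB between sets gave -0.215 with normexp, -0.0030 without line and -0.057 without both highest pigs. With 1 pig left out, the line differences ran from -0.26 to 0.12 for CD74, -0.12 to 0.19 for SLA-DMA, -0.32 to 0.11 for SLA-DMB, -0.074 to 0.13 for SLA-DOB, -0.35 to 0.037 for SLA-DQB1, -0.24 to 0.15 for SLA-DRA and -0.29 to 0.065 for SLA-DRB1, and SLA-DOB between sets from -0.11 to 0.10.

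Same-numbered pigs of the lines correlated at -0.012 to 0.271 in their deviations, and 6 of 7 numbers correlated higher with another number. Each was set against the highest of several other pigs, so the comparison cannot exclude a pairing, and the main models assumed none. With the replicate block, 0 members were called for line, the median was -0.019 and SLA-DRA gave 0.011. No paired analysis was possible for the number set because each replicate number lies in 1 set. Dim probes, as of SLA-DOB, limit what can be read.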
